A study of Mus musculus with 24 samples.

Results

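The genes described here are the 5 NF-κB subunits and 5 of their inhibitors and feedback regulators, 10 genes chosen by name out of 35817 measured: the subunits Nfkb1, Nfkb2, Rel, Rela and Relb, the inhibitors Nfkbia, Nfkbib and Nfkbie, the ubiquitin-editing enzyme gene Tnfaip3 and the atypical IκB gene Bcl3. All 10 passed the filter on low counts in every fit. NF-κB factors are dimers of Rel-family proteins that rest in the cytoplasm bound to IκB proteins. In T cells the antigen receptor and CD28 activate the IκB kinases, which leads to IκB degradation and lets the dimers enter the nucleus, and a slower route that starts at receptors such as CD40 and the lymphotoxin β receptor processes the p100 protein of Nfkb2 to p52 and releases RelB. Several of the inhibitors, among them IκBα and A20, are themselves induced by NF-κB and so close a negative feedback loop.

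The data are RNA sequencing libraries of mouse T cells, 24 in all, in 8 groups of 3. CD8+ and CD4+ T cells were sorted from the spleens of Cat-Tg or wild-type (WT) mice of the C57BL/6 background, either before transplantation (pre-tx) or, for the post-tx groups, from the spleens of BALB/c mice that had been lethally irradiated and had received those T cells 7 days earlier. Cat-Tg mice carry 1 allele of a transgene for a human β-catenin fragment that lacks its N-terminus, in a vector with the proximal Lck promoter, which is active in T-lineage cells. Founders were made in FVB mice and crossed to C57BL/6, there were several of them, and the labels do not say which line was used. All recipients, of either donor genotype, were also given T cell-depleted WT bone marrow, and the post-tx sort relied on the donor antigen H-2Kb, which that marrow also carries. Adult mice matched for age and sex were used, 3 per group by the study's methods, and the CD8+ and CD4+ libraries of a group came from the same mice, although the labels do not tie a library to a mouse. The human transgene RNA was not analysed here. The mouse gene Ctnnb1 did not differ between genotypes in any of the 4 genotype comparisons (lowest adjusted p = 0.317), so it does not check the genotype labels.

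Total estimated counts ran from 11135713 to 50519825 per library (median 27062440), and 3 counts corresponded to between 0.0596 and 0.27 CPM, the count scaled to library size. The WT pre-tx libraries went against their labels. Summed over 17 B cell genes they held 16200 to 22500 CPM, against 1330 to 4740 CPM in the Cat-Tg pre-tx libraries, and over 12 T cell genes they held 1890 to 3190 CPM against 6480 to 10100. Both coreceptors were present in both: Cd4 stood at 81.1 to 107 CPM in the WT CD8+ pre-tx libraries and Cd8a at 134 to 155 CPM in the WT CD4+ pre-tx libraries, while in the other 6 groups Cd4 in CD8+ and Cd8a in CD4+ libraries were at most 8.79 CPM. Each of the 3 WT CD8+ pre-tx libraries correlated best with a WT CD4+ pre-tx library. Among post-tx libraries, those of Cat-Tg CD4+ cells held 7600 to 8960 CPM over 14 myeloid genes against 1310 to 2040 CPM in WT CD4+ cells, and the 3 WT CD8+ libraries were the least alike of any group (Spearman's rho 0.839 to 0.902). Replicate 3 of these WT CD8+ post-tx libraries correlated best with a Cat-Tg CD8+ post-tx library (0.922, against 0.893 to 0.902 within its own group). Cat-Tg and WT libraries also carry different series prefixes in their labels, so library series and genotype cannot be told apart.

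**Figure D1:**
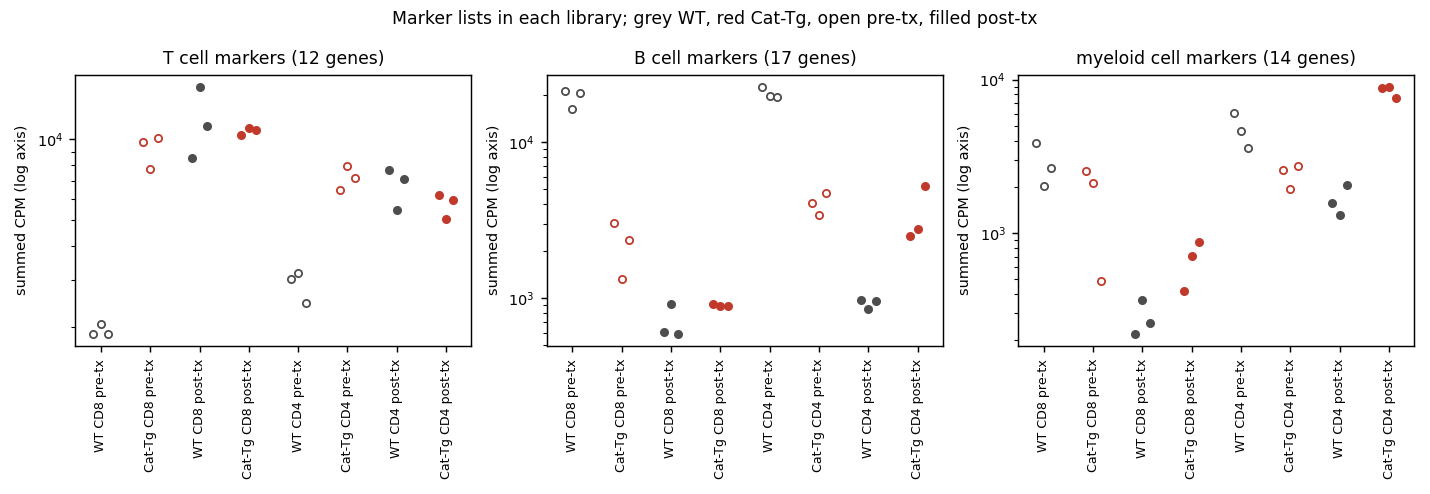
Summed CPM (log axis) of the T cell, B cell and myeloid marker lists in each library, for the 8 groups. The open grey points of the WT pre-tx groups sit at 16200 to 22500 CPM in the B cell panel, above every other library, and the Cat-Tg CD4+ post-tx libraries sit at 7600 to 8960 CPM in the myeloid panel.

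The promoters show which of these genes carry the binding motif of the factors they encode or restrain. RefSeq promoter windows (GRCm38.p6, from 250 bases before to 50 bases after a start) were found for 8 of the 10 genes, and none was in the table for Nfkb1 and Relb. The κB consensus, a motif of 10 bases searched on both strands, with overlapping matches joined, was in a window of 6 of the 8: Nfkb2, Rel, Nfkbia, Nfkbie, Tnfaip3 and Bcl3. It was in a window of 5.14% of all 27025 genes with one. The windows of Rela and Nfkbib had no match, which says only that these letters are absent there. The following sequences are from these 6 genes, whether or not their counts moved between groups. They are read on the gene's strand, 5′ to 3′, with the match in capitals. Nfkb2 had further matches in the windows of other starts, such as -236 to -227 and 11 to 20, which are not shown. Positions are counted from the start, which is 1, with the base before it at -1.
Rel, chr11:23771042-23771070, minus strand, match at -92 to -82: gtaagcagcGGGAAATCCCCccccctccc
Nfkb2, chr19:46304689-46304717, plus strand, match at -39 to -29: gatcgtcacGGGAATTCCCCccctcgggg
Nfkb2, chr19:46304716-46304745, plus strand, match at -11 to -2: ggggccgaaaGGGGCTTTCCcggctggagc
Nfkbia, chr12:55492648-55492767, minus strand, match at -29 to -20: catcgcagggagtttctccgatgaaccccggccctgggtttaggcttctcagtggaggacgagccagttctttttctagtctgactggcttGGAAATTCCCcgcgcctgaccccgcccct
Nfkbie, chr17:45555580-45555699, plus strand, match at -106 to -97: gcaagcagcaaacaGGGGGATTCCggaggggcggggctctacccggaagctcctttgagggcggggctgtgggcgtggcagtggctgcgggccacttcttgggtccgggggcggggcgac
Tnfaip3, chr10:19015516-19015545, minus strand, match at -125 to -116: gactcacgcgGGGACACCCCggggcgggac
Tnfaip3, chr10:19015403-19015432, minus strand, match at -12 to -3: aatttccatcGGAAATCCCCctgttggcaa
Bcl3, chr7:19822734-19822763, minus strand, match at 3 to 12: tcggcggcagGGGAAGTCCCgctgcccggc
The matches of Rel and of the first Nfkb2 site are 11 bases long because 2 matches overlap. A match is a description of the sequence, and no binding was measured. Of the genes in the other lists used here, 3 of 18 upstream signaling genes, 5 of 12 other inhibitors and 8 of 29 target genes with a window had a match.

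By levels per transcript length (TPM), the highest and the lowest of the 10 genes were the same in all 8 groups, while the order between them varied. Nfkb1, for example, had rank 2 in Cat-Tg CD4+ post-tx cells and rank 8 in WT CD4+ pre-tx cells. Nfkbia, which encodes IκBα, the inhibitor that is degraded and resynthesized fastest, was the highest of the 10 in all 8 groups, from a mean of 148 TPM ± 40.9 (SD, n = 3) in Cat-Tg CD8+ post-tx cells to 569 TPM ± 51.1 (SD, n = 3) in WT CD4+ post-tx cells. Rel, which encodes c-Rel, was the lowest of the 10 in all 8 groups, from 0.313 TPM ± 0.182 to 6.11 TPM ± 2.68 (SD, n = 3). Nfkbib, the gene of IκBβ, was second in 5 of the 8 groups. On the CPM scale, which compares 1 gene between libraries, the group means of Bcl3 ranged over 22.4 fold, those of Nfkb1 over 13.1 fold and those of Rel over 9.14 fold, whereas those of Nfkbia and Rela ranged over 2.35 fold and 2.49 fold.

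**Figure D2:**
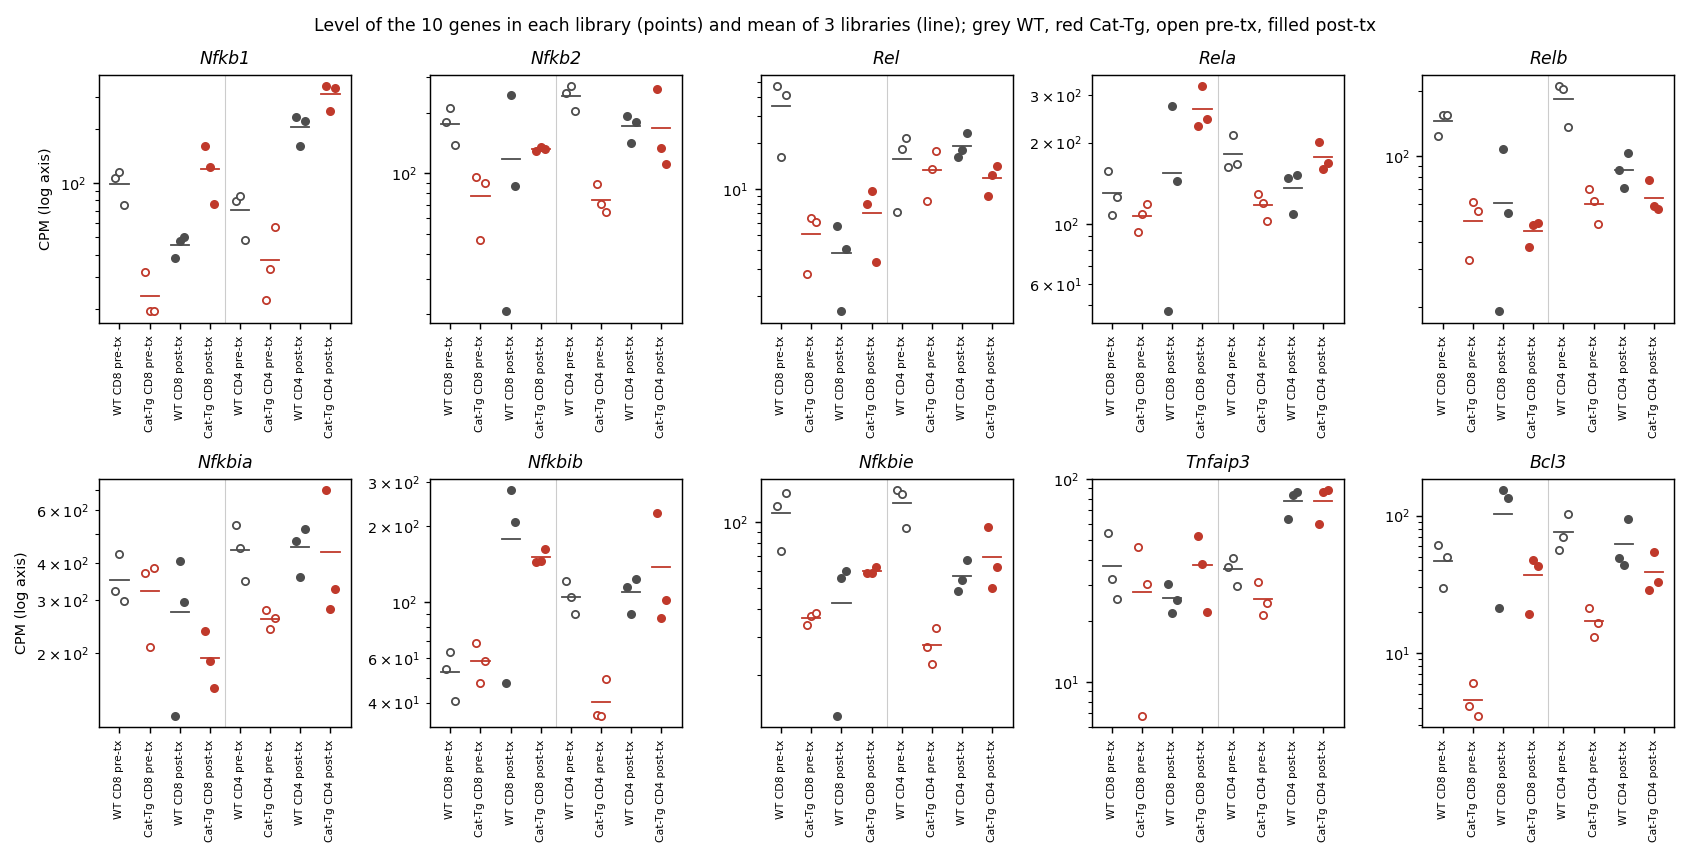
Level of each of the 10 genes in CPM (log axis) in the 24 libraries, by group, with the mean of 3 libraries as a line. Nfkb1 is highest in the Cat-Tg CD4+ post-tx libraries (250 to 345 CPM), Bcl3 lowest in the Cat-Tg CD8+ pre-tx libraries (3.5 to 6.08 CPM), and replicate 1 of WT CD8+ post-tx is the lowest of its group for 8 of the genes.

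Each gene was compared between Cat-Tg and WT cells at each time, and between post-tx and pre-tx cells in each genotype, which makes 8 comparisons. The log2 fold changes come from edgeR's quasi-likelihood test on counts, adjusted by Benjamini-Hochberg over all genes tested (15960 in CD8+ and 17227 in CD4+ cells), and a gene passed at an adjusted p of at most 0.05. Folds were scaled within the 12 libraries of a cell type and CPM values over all 24, so a fold can differ somewhat from the ratio of the CPM printed beside it. Groups that do not overlap were common among all genes tested. Between genotypes this held for 33.3% (CD8+) and 38.1% (CD4+) of genes pre-tx and for 25.3% and 28.4% post-tx. Over time it held for 49.2% in Cat-Tg CD8+, 34.2% in WT CD8+, 56.8% in Cat-Tg CD4+ and 43.8% in WT CD4+ cells. Nfkb1 passed in 4 of the 8 comparisons, Nfkbib, Nfkbie and Bcl3 in 3 each, and Nfkb2, Rel, Relb and Tnfaip3 in 2 each. Rela, the gene of p65, and Nfkbia passed in 0 of the 8. At an unadjusted p under 0.05, which 19.1% to 53.2% of all genes tested reached in these comparisons, Rela had 1 of 8 and Nfkbia 0 of 8, and with DESeq2 and with voom both had 0 of 8. With no filter on low counts Rela passed in Cat-Tg CD8+ and Nfkbia in Cat-Tg CD4+ cells over time, and Nfkbia passed post-tx between genotypes in CD4+ cells without Cat-Tg replicate 1.

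**Figure D3:**
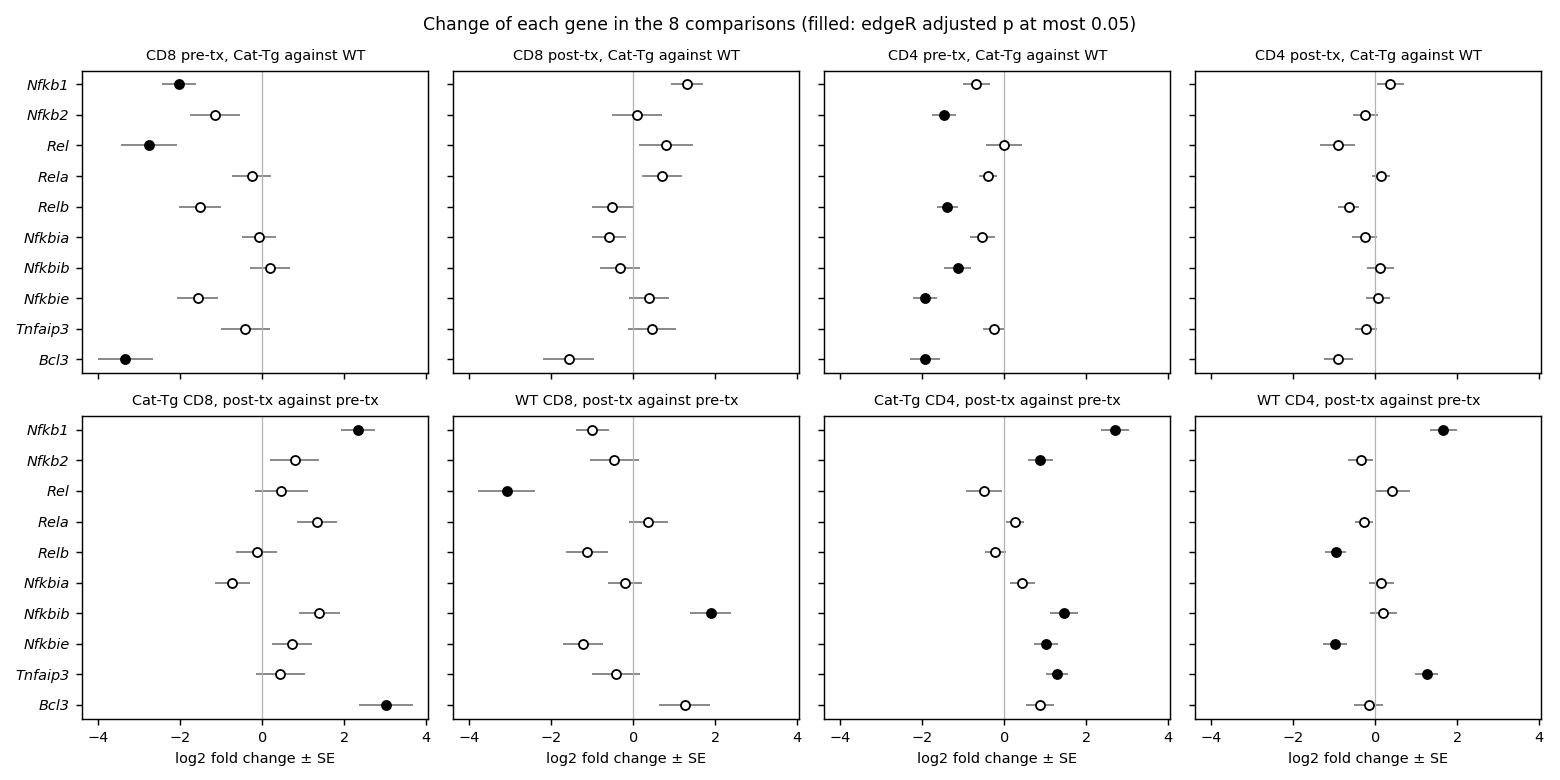
Log2 fold change ± SE of the 10 genes in the 4 genotype comparisons (top) and the 4 comparisons of post-tx with pre-tx cells (bottom), with filled points for an adjusted p of at most 0.05 in edgeR. The filled points lie below 0 in the pre-tx genotype panels, there are none in the post-tx genotype panels, and 5 lie above 0 for Cat-Tg CD4+ cells over time.

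In Cat-Tg CD4+ cells, transplantation came with more RNA of 1 subunit in particular and of several inhibitors. Of the 10 genes, 5 rose from pre-tx to post-tx and 0 fell, where 16.2% of all genes tested rose and 45.2% changed in either direction. In bulk samples of this kind, a different share of cells of a type and a different amount of RNA per cell cannot be told apart. Nfkb1 encodes p105, which is processed to the p50 subunit and in its unprocessed form also holds other subunits in the cytoplasm. It stood at 22.4, 33.4 and 56.9 CPM in the pre-tx libraries and at 345, 250 and 336 CPM in the post-tx libraries. The groups lay far apart, and the log2 fold change was 2.71 (SE 0.344, adjusted p = 3.74e-05). Nfkb2, the gene of p100 and p52, stood at 88.2, 70.4 and 64.3 CPM pre-tx and at 262, 133 and 112 CPM post-tx. The ranges did not overlap, but replicate 1 was well above the other two post-tx libraries, and the log2 fold change of 0.88 (SE 0.299, adjusted p = 0.0259) fell to 0.39 (adjusted p = 0.175) without that library. The call was also lost without pre-tx replicate 2 (0.83, adjusted p = 0.0765) or 3 (0.79, adjusted p = 0.0839).

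The inhibitors that rose in Cat-Tg CD4+ cells were Nfkbib, Nfkbie and Tnfaip3. Nfkbib, whose product IκBβ binds p65 and c-Rel dimers, went from 35.9, 35.5 and 49.8 CPM to 226, 86.8 and 102 CPM. All post-tx libraries lay above all pre-tx libraries (log2 fold change 1.46, SE 0.335, adjusted p = 0.00311). Nfkbie, the gene of IκBε, went from 27, 22.6 and 32.8 CPM to 95.3, 49.9 and 62.5 CPM. Here too the groups were apart (log2 fold change 1.01, SE 0.294, adjusted p = 0.012), and the call was lost without pre-tx replicate 2 (0.87, adjusted p = 0.0517). Tnfaip3 encodes A20, which removes ubiquitin chains from signaling proteins upstream of the IκB kinase. It went from 31.1, 21.3 and 24.6 CPM to 59.8, 86.4 and 88.1 CPM, with no overlap (log2 fold change 1.28, SE 0.269, adjusted p = 0.00178). Bcl3, whose product binds p50 and p52 dimers in the nucleus, missed the threshold (0.87, SE 0.351, adjusted p = 0.0544) and passed when the WT pre-tx libraries were left out of the fit, which gave 6 genes higher. The other 4 genes, Rel, Rela, Relb and Nfkbia, had log2 fold changes between -0.5 and 0.44 and did not pass. The myeloid genes also went from 1930 to 2710 CPM pre-tx to 7600 to 8960 CPM post-tx in these cells, and the red cell genes from 1330 to 2110 CPM to 4460 to 26900 CPM, with replicate 1 the highest. Their part in these changes was not tested.

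Most of the Nfkb1 counts were assigned to transcripts that are not annotated as coding. Over the 24 libraries a median of 9.12% of the gene's counts (2.65% to 25.9%) lay on protein-coding transcripts, whereas the medians of the other 9 genes were between 87.6% and 100%. Nfkb1 lies on chr3:135584655-135691547 (GRCm38, minus strand, GENCODE M21), and the full-length coding transcript Nfkb1-201 has 25 exons. Nfkb1-202, a retained intron model that overlaps exons 13 to 25, held a median of 61.5% of the counts (34.3% to 81.1%). Nfkb1-207, a nonsense-mediated decay model over exons 16 to 25, held a median of 13.8%. Nfkb1-201 itself held a median of 0% and at most 6.6%. Together Nfkb1-202, Nfkb1-207 and the short processed transcript Nfkb1-205, all of them within the later exons, held 63.5% ± 13.2 (SD, n = 3) of the counts in Cat-Tg CD4+ pre-tx cells and 91.1% ± 2.75 in Cat-Tg CD4+ post-tx cells. With only protein-coding transcripts summed, an alternative chosen after this was seen, the Cat-Tg CD4+ difference had the same direction and missed the threshold (log2 fold change 1.5, adjusted p = 0.0883). Every Nfkb1 call given here, in each of the 7 comparisons that had one, missed the threshold in that way of counting.

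**Figure D4:**
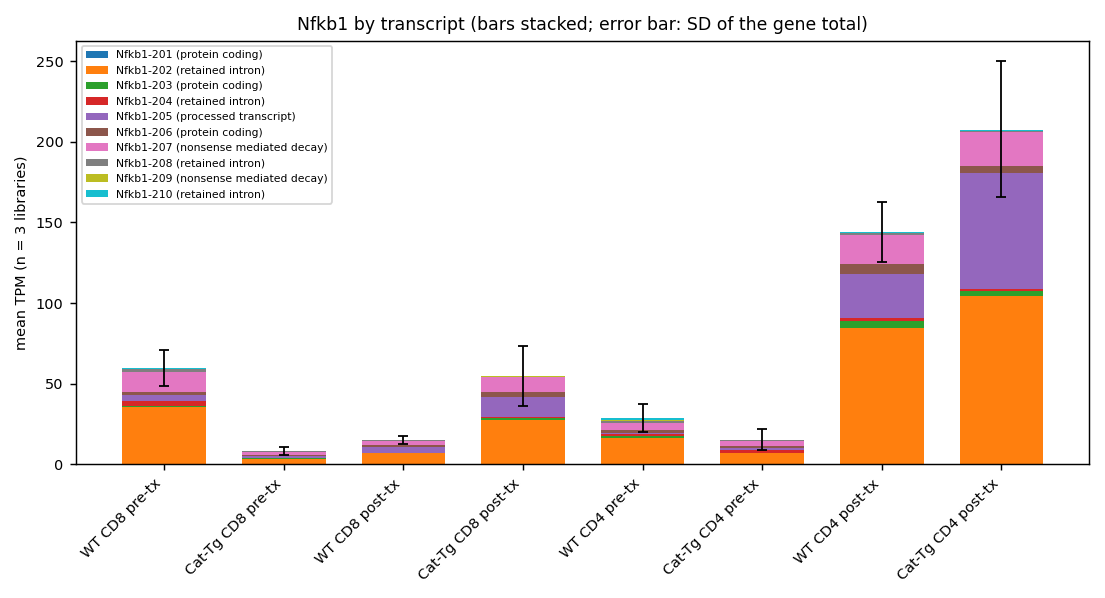
Mean TPM of each Nfkb1 transcript (stacked bars, n = 3 libraries) in the 8 groups, with the SD of the gene total as an error bar. Nfkb1-202 makes up the largest piece in every group, with 104 TPM of a total of 208 TPM in Cat-Tg CD4+ post-tx cells.

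In Cat-Tg CD8+ cells 2 of the 10 genes rose after transplantation and 0 fell, where 8.72% of all genes tested rose and 13.9% changed. Nfkb1 stood at 32.3, 19.4 and 19.4 CPM pre-tx and at 160, 122 and 76.5 CPM post-tx. The lowest post-tx library was above the highest pre-tx library, and the log2 fold change was 2.34 (SE 0.415, adjusted p = 0.00211; 1.83 and adjusted p = 0.198 on protein-coding transcripts). Bcl3 stood at 4.14, 6.08 and 3.5 CPM pre-tx and at 19.3, 47.5 and 43.2 CPM post-tx. It had the largest fold of the 10 genes in this comparison, without overlap (log2 fold change 3.01, SE 0.656, adjusted p = 0.00788). These calls held with each library left out in turn and without the WT pre-tx libraries. Nfkbib went from 68.7, 47.8 and 58.6 CPM to 144, 146 and 163 CPM and Rela from 93.5, 109 and 119 CPM to 231, 324 and 245 CPM. Neither pair of groups overlapped, but neither gene passed (Nfkbib 1.39, adjusted p = 0.0708; Rela 1.33, adjusted p = 0.0748). The other 6 genes, Nfkb2, Rel, Relb, Nfkbia, Nfkbie and Tnfaip3, had log2 fold changes between -0.73 and 0.79. The summed NK cell genes, which activated CD8+ cells also express, went from 1080 to 1490 CPM to 6170 to 6350 CPM over the same comparison. Of these 5 genes 1 passed as higher and 0 as lower. The B cell sum went from 1330 to 3040 CPM to 888 to 911 CPM, with 13 of 17 genes lower. Of the 14 myeloid genes 5 were higher and 3 lower (median log2 fold change 1.68). The part of these lists was not tested.

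In WT CD4+ cells Nfkb1 and Tnfaip3 rose and Relb and Nfkbie fell, where 14.7% of all genes tested rose, 9.61% fell and 24.3% changed in either direction. Nfkb1 and Tnfaip3 also passed a 2-fold minimum, as did 22.1% of all genes tested. The comparison rests on the WT pre-tx libraries described above, in which the B cell genes held 19400 to 22500 CPM against 850 to 979 CPM post-tx. There 6 of 6 red cell genes and 2 of 14 myeloid genes were also lower post-tx (median log2 fold changes -4.13 and -0.27) and 12 of 12 T cell genes were higher (1.37), and the part of these lists was not tested. Nfkb1 stood at 79.8, 85.1 and 48.3 CPM pre-tx and at 233, 161 and 220 CPM post-tx. The groups did not overlap (log2 fold change 1.66, SE 0.331, adjusted p = 0.00195; 1.15 and adjusted p = 0.229 on protein-coding transcripts). Tnfaip3 stood at 37, 40.9 and 29.6 CPM pre-tx and at 63.4, 83.1 and 86.6 CPM post-tx, again apart (1.25, SE 0.269, adjusted p = 0.00331). Relb, the gene of the RelB subunit of the slower route, stood at 212, 204 and 136 CPM pre-tx and at 85.8, 71.1 and 103 CPM post-tx. Every post-tx library was lower (-0.96, SE 0.256, adjusted p = 0.013), and the call was lost without pre-tx replicate 1 or post-tx replicate 2 (adjusted p = 0.0535 and 0.0505). Nfkbie stood at 140, 134 and 93.7 CPM pre-tx and at 48.3, 54.5 and 67.1 CPM post-tx. It was lower in every post-tx library (-0.99, SE 0.293, adjusted p = 0.0227), and that call was lost without pre-tx replicate 1 or 2 or any post-tx replicate (adjusted p from 0.0523 to 0.0846). The other 6 genes, Nfkb2, Rel, Rela, Nfkbia, Nfkbib and Bcl3, had log2 fold changes from -0.36 (Nfkb2) to 0.42 (Rel) and did not pass.

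In WT CD8+ cells Rel fell and Nfkbib rose, where 10.4% of all genes tested fell, 13.2% rose and 23.6% changed in either direction. The WT CD8+ pre-tx libraries held 16200 to 21300 CPM of B cell genes against 592 to 917 CPM post-tx. In the same comparison 10 of 14 myeloid genes and 6 of 6 red cell genes were lower post-tx (median log2 fold changes -3.35 and -3.31) and 10 of 12 T cell genes were higher (2.54), and the part of these lists was not tested either. Rel stood at 47.2, 16.1 and 41.1 CPM pre-tx and at 5.76, 1.59 and 4.07 CPM post-tx. The groups did not overlap (log2 fold change -3.09, SE 0.701, adjusted p = 0.00477). Nfkbib stood at 54.5, 63.3 and 40.5 CPM pre-tx and at 48, 278 and 208 CPM post-tx. Replicate 1 of the post-tx group was inside the pre-tx range while the other two were far above it (1.89, SE 0.504, adjusted p = 0.013), and the call was lost without pre-tx replicate 3 (adjusted p = 0.0583) or post-tx replicate 2 or 3 (adjusted p = 0.0821 in each case). The same post-tx replicate 1 was low for other genes: Nfkb2 stood at 20.7, 246 and 86.7 CPM, Rela at 47.5, 272 and 144 CPM, Relb at 19, 108 and 54.3 CPM, and Bcl3 at 21.4, 153 and 133 CPM. Without replicate 1 the number of genes called went from 2 to 5 (Nfkb1, Rel, Nfkbib, Nfkbie and Bcl3), and without replicate 2 it also went to 5, with Nfkb2 and Relb in place of Nfkbib and Bcl3. With all libraries, Nfkb1, Nfkb2, Rela, Relb, Nfkbia, Nfkbie, Tnfaip3 and Bcl3 had log2 fold changes from -1.23 (Nfkbie) to 1.25 (Bcl3) and did not pass.

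The change from pre-tx to post-tx was then compared between the genotypes, as an interaction in the same fits. In CD8+ cells it was larger in Cat-Tg than in WT cells for Nfkb1 (difference of log2 fold changes 3.34, SE 0.574, adjusted p = 0.002) and Rel (3.55, SE 0.944, adjusted p = 0.0254), 2 of 10 genes where 5.94% of all tested passed as larger and 10.7% in either direction. For Nfkb1 the Cat-Tg libraries went up (log2 fold change 2.34) while the WT value was -1 and did not pass. For Rel the WT libraries fell by 3.09 on the log2 scale while the Cat-Tg value was 0.46 and did not pass. Rel's call was lost without Cat-Tg CD8+ post-tx replicate 1 or 2 or WT CD8+ pre-tx replicate 1 or 3 (adjusted p from 0.0547 to 0.0715), and leaving out WT CD8+ post-tx replicate 2 gave 6 genes. The differences for Nfkb2, Rela, Relb, Nfkbia, Nfkbib, Nfkbie, Tnfaip3 and Bcl3 did not pass, with the lowest at -0.51 (Nfkbia) and the highest for Nfkbie (SE 0.698, 95% interval 0.59 to 3.32, adjusted p = 0.0876). In CD4+ cells the change was larger in Cat-Tg cells for Nfkbie (2, SE 0.415, adjusted p = 0.00388) and Nfkb2 (1.24, SE 0.42, adjusted p = 0.0464), 2 of 10 genes where 7.28% of all tested passed as larger and 21.4% in either direction. Nfkbie rose in Cat-Tg and fell in WT CD4+ cells, and it passed with each library left out. Nfkb2's call was lost when any of 8 of the 12 libraries was left out, with values from 0.75 to 1.37 (adjusted p from 0.0503 to 0.11). For Nfkb1 and Tnfaip3 in CD4+ cells the difference did not pass (1.05, 95% interval 0.16 to 1.95, and 0.03, interval -0.71 to 0.76), nor did it for Rel, Rela, Relb, Nfkbia, Nfkbib and Bcl3, where it ran from -0.92 (Rel) to 1.27 (Nfkbib). All of these differences include the WT pre-tx libraries.

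After transplantation none of the 10 genes passed between Cat-Tg and WT cells in either lineage in edgeR. In CD8+ cells 0 of 10 passed where 1.67% of all genes tested did. At an unadjusted p under 0.05 there were 2, against 19.1% of all genes, and DESeq2 called 1 (Nfkb1) and voom 0. Nfkb1 had the largest positive log2 fold change, at 160, 122 and 76.5 CPM in Cat-Tg and 38.3, 47.5 and 50.1 CPM in WT libraries. Those groups did not overlap (1.31, 95% interval 0.52 to 2.1, adjusted p = 0.102), and without Cat-Tg replicate 3 the gene passed. Bcl3 had the largest negative value (-1.58, interval -2.79 to -0.37, adjusted p = 0.195), with overlapping groups since WT replicate 1 stood at 21.4 CPM, and it passed without that library. Nfkb2, Rel, Rela, Relb, Nfkbia, Nfkbib, Nfkbie and Tnfaip3 lay between -0.6 (Nfkbia) and 0.79 (Rel). In CD4+ cells 0 of 10 passed where 10.2% of all genes tested did. At an unadjusted p under 0.05 there were 2, against 24.5% of all genes, and DESeq2 and voom called 0. The log2 fold changes ran from -0.92 (Rel, interval -1.78 to -0.06) to 0.37 (Nfkb1, interval -0.26 to 1.01). Nfkbia passed there without Cat-Tg replicate 1, which at 702 CPM was far above the other two at 280 and 327 CPM. Tnfaip3 covered nearly the same range in both groups, with 59.8, 86.4 and 88.1 CPM in Cat-Tg and 63.4, 83.1 and 86.6 CPM in WT libraries (-0.22, interval -0.74 to 0.29). Nfkb2, Rela, Relb, Nfkbib, Nfkbie and Bcl3 lay between -0.9 (Bcl3) and 0.15 (Rela). In the same CD4+ comparison 11 of 14 myeloid genes and 6 of 6 red cell genes were higher in Cat-Tg cells (median log2 fold changes 2.25 and 4.27). Of the 17 B cell genes 6 were higher and 2 lower (0.32). The part of these lists was not tested.

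Before transplantation 5 of the 10 genes were lower in Cat-Tg CD4+ cells and 3 in Cat-Tg CD8+ cells, and 0 were higher in either. Of all genes tested, 7.18% were lower, 13.3% were higher and 20.4% differed in CD4+ cells, and 4.47% were lower, 4.5% were higher and 8.97% differed in CD8+ cells. The WT side of both comparisons is the libraries with the high B cell and low T cell sums. All 17 B cell genes were lower in the Cat-Tg cells of either lineage. Myeloid genes were lower for 9 of 14 in CD8+ and 4 of 14 in CD4+ cells (medians -3.69 and -0.32). Red cell genes were lower for 0 of 6 and 5 of 6 (0.04 and -3.15), and no gene of these lists was higher. The part of that composition was not tested. In CD4+ cells Nfkbie stood at 27, 22.6 and 32.8 CPM in Cat-Tg and 140, 134 and 93.7 CPM in WT libraries. Bcl3 stood at 21.4, 13.1 and 16.5 CPM against 56.1, 69.7 and 102 CPM. Both were apart and had the same log2 fold change (-1.93, SE 0.301, adjusted p = 0.000412 for Nfkbie, and -1.93, SE 0.36, adjusted p = 0.00139 for Bcl3). Nfkb2 stood at 88.2, 70.4 and 64.3 CPM against 250, 272 and 204 CPM, and Relb at 70, 61.9 and 48.2 CPM against 212, 204 and 136 CPM. These genes, which encode the partners p52 and RelB, were thus lower in every Cat-Tg library (-1.47, SE 0.302, adjusted p = 0.00272 for Nfkb2, and -1.39, SE 0.259, adjusted p = 0.00138 for Relb). Nfkbib also passed (-1.14, SE 0.332, adjusted p = 0.0225), although not without Cat-Tg replicate 1 or 2 (adjusted p = 0.0747 and 0.0874). The other 5 genes, Nfkb1, Rel, Rela, Nfkbia and Tnfaip3, had log2 fold changes between -0.68 and 0 and did not pass.

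In CD8+ pre-tx cells the lower genes were Nfkb1, Rel and Bcl3. Bcl3 stood at 4.14, 6.08 and 3.5 CPM in Cat-Tg and at 60.6, 29.5 and 50 CPM in WT libraries. This was the widest gap of any of the 10 genes in the 8 comparisons (log2 fold change -3.34, SE 0.665, adjusted p = 0.00575). Rel stood at 2.79, 6.43 and 6.11 CPM against 47.2, 16.1 and 41.1 CPM. The groups were apart (-2.76, SE 0.689, adjusted p = 0.0207), and the call was lost without replicate 1 or 3 of either group (adjusted p from 0.059 to 0.0828). Nfkb1 stood at 32.3, 19.4 and 19.4 CPM against 106, 115 and 75.9 CPM, lower in every Cat-Tg library (-2.03, SE 0.41, adjusted p = 0.00611), and on protein-coding transcripts the value shrank to -0.55 (adjusted p = 0.801). Relb and Nfkbie were lower in every Cat-Tg library too but missed the threshold (-1.51, adjusted p = 0.079, and -1.57, adjusted p = 0.0641), and both DESeq2 and voom called them, which made 5 genes. Nfkb2 had a value of -1.16 and the other 4 genes, Rela, Nfkbia, Nfkbib and Tnfaip3, values between -0.41 and 0.18, and none of these passed.

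CD8+ and CD4+ cells were compared within a genotype and time in a fit of all 24 libraries (19076 genes), for 3 of the 4 pairs, since both WT pre-tx groups held both coreceptors. In WT post-tx cells Nfkb1, Rel and Tnfaip3 were lower in CD8+ than in CD4+ cells, 3 of 10 genes where 7.16% of all tested were lower and 13.1% differed. Nfkb1 stood at 38.3, 47.5 and 50.1 CPM in CD8+ and at 233, 161 and 220 CPM in CD4+ libraries. The gap was wide (log2 fold change -2.18, SE 0.365, adjusted p = 0.000263; -1.63 and adjusted p = 0.213 on protein-coding transcripts). Rel stood at 5.76, 1.59 and 4.07 CPM against 16.3, 18 and 23.2 CPM (-2.33, SE 0.577, adjusted p = 0.00781), and without CD8+ replicate 2 it did not pass (-1.75, adjusted p = 0.0684). Tnfaip3 stood at 30.4, 21.8 and 25.2 CPM against 63.4, 83.1 and 86.6 CPM (-1.59, SE 0.47, adjusted p = 0.0251). All 3 genes were lower in every CD8+ library, in a comparison where the groups did not overlap for 25.9% of all genes tested. The Tnfaip3 call was lost without replicate 2 or 3 of either lineage (adjusted p from 0.069 to 0.137). Without CD8+ replicate 1, Nfkbib and Bcl3 passed as well and 5 genes were called. With all libraries, Nfkb2, Rela, Relb, Nfkbia, Nfkbib, Nfkbie and Bcl3 lay between -0.71 (Nfkbia) and 0.71 (Bcl3). The myeloid genes stood at 220 to 367 CPM in these CD8+ libraries against 1310 to 2040 CPM in the CD4+ libraries, with 12 of 14 lower, and their part was not tested. In Cat-Tg post-tx cells Nfkb1 was lower in CD8+ cells (-1.38, SE 0.356, adjusted p = 0.0186), the 1 gene of 10 that passed where 4.51% of all tested were lower and 6% differed. That call was lost without CD8+ replicate 2 or 3 or CD4+ replicate 1 or 3 (adjusted p from 0.0634 to 0.189), and the CD4+ libraries of this pair held 7600 to 8960 CPM of myeloid genes against 418 to 871 CPM in the CD8+ libraries, whose part was not tested. Nfkb2, Rel, Rela, Relb, Nfkbia, Nfkbib, Nfkbie, Tnfaip3 and Bcl3 lay between -1.18 (Nfkbia) and 0.59 (Rela). In Cat-Tg pre-tx cells 0 of 10 passed in edgeR where 1.53% of all tested did, with 2 at an unadjusted p under 0.05 (10.3% of all tested), 1 in DESeq2 (Bcl3) and 0 in voom. Bcl3 there had a value of -1.89 (95% interval -2.95 to -0.84, adjusted p = 0.0846), and Nfkb1, Nfkb2, Rel, Rela, Relb, Nfkbia, Nfkbib, Nfkbie and Tnfaip3 lay between -1.37 (Rel) and 0.53 (Nfkbib).

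The genes around the 10 were taken from 3 lists: 24 genes of the route from receptors to the IκB kinases, 16 other inhibitors and 36 known target genes. In Cat-Tg CD4+ cells over time, 9 of the 24 upstream genes rose and 1 fell, where 16.2% of all genes tested rose and 28.9% fell, with a median log2 fold change of 0.4 against -0.38 over all genes. Only 3 of the 9 passed with a 2-fold minimum. The highest were Ltbr, the lymphotoxin β receptor (3.3, adjusted p = 0.00055), which went from between 1.24 and 6.3 CPM to between 31.9 and 48.1 CPM, Ripk1, a kinase of the TNF receptor complex (1.35, adjusted p = 0.0147), and Traf3, an adaptor that holds back the slower route (1.07, adjusted p = 0.045). The gene that fell was Cd40 (-1.89, adjusted p = 0.00454). Ltbr is known from myeloid and stromal cells and Cd40 from B cells and myeloid cells, and in this comparison the myeloid sum was higher post-tx, as given above. Of the 17 B cell genes 13 fell (median -3.7), while their summed level overlapped, at 3420 to 4740 CPM pre-tx and 2500 to 5230 CPM post-tx. The part of these cell types in the Ltbr and Cd40 calls was not tested. In Cat-Tg CD8+ cells 2 of the 24 rose and 1 fell (median 0.35 against -0.26 over all genes), where 8.72% of all genes rose and 5.23% fell. The TNF receptor gene Tnfrsf1b rose from between 64.8 and 103 CPM to between 469 and 616 CPM (2.58, adjusted p = 0.0039), Cd40 fell (-2.22, adjusted p = 0.0224, a call lost without the WT pre-tx libraries), and Ltbr passed from a pre-tx level of 0.0357 to 0.0997 CPM, which is within what 3 counts make, so its fold is not given. In WT CD4+ cells 4 rose and 4 fell, where 14.7% and 9.61% of all genes did, and in WT CD8+ cells 2 rose and 5 fell, where 13.2% and 10.4% did.

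Of the 16 other inhibitors, 3 rose and 1 fell in Cat-Tg CD4+ cells (median 0.36 against -0.38 over all genes) and 2 rose and 1 fell in Cat-Tg CD8+ cells (median 0.81 against -0.26). The shares of all genes were 16.2% and 28.9% in CD4+ and 8.72% and 5.23% in CD8+ cells. The number that rose in CD4+ cells was 6 with DESeq2, with no filter and without the WT pre-tx libraries, and in CD8+ cells it was 4 with DESeq2, 1 without the WT pre-tx libraries and 0 on protein-coding transcripts. Tnip2, the gene of a partner of A20, rose in CD4+ cells from between 5.83 and 9.22 CPM to between 23.5 and 37.5 CPM (1.49, adjusted p = 0.00488) and in CD8+ cells from between 2.89 and 5.1 CPM to between 11.3 and 18.2 CPM (1.85, adjusted p = 0.021). N4bp1 passed in both lineages as well (2.14, adjusted p = 0.000774, and 2.02, adjusted p = 0.0484). Birc2, the gene of the ubiquitin ligase cIAP1, fell in both (-2.15, adjusted p = 0.000441, and -2.46, adjusted p = 0.0273). Nfkbiz, an atypical IκB gene like Bcl3, rose in CD4+ cells (1.8, adjusted p = 0.000144). In WT cells 4 of the 16 rose and 0 fell in CD4+ cells, and 2 rose and 6 fell in CD8+ cells, with medians of 0.43 and -1.06, where 14.7% and 9.61% of all genes did in CD4+ and 13.2% and 10.4% in CD8+ cells.

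The target genes moved in both directions. In Cat-Tg CD4+ cells 12 of 35 tested rose and 8 fell (median 0.69 against -0.38 over all genes), where 16.2% of all genes rose and 28.9% fell. In Cat-Tg CD8+ cells 10 of 32 rose and 3 fell (median 0.23 against -0.26), where 8.72% of all genes rose and 5.23% fell. The chemokine gene Ccl3 went from between 0.124 and 0.373 CPM to between 7.03 and 16 CPM in CD4+ cells (5.19, adjusted p = 5.48e-06) and from between 0.199 and 0.771 CPM to between 12.6 and 22.7 CPM in CD8+ cells (4.95, adjusted p = 0.000564). In the CD4+ pre-tx libraries 3 counts make 0.111 to 0.156 CPM, so the lowest level there is at that floor and the fold is uncertain. Of the 14 myeloid genes 10 were higher and 1 lower in the CD4+ comparison (median 2.19), and their part was not tested. Il2ra, the IL-2 receptor α chain, had the highest log2 fold change of the list in CD8+ cells, where it went from between 0.357 and 1.37 CPM to between 35.2 and 63.2 CPM (5.76, adjusted p = 0.000162). Ccr7, the receptor that guides naive T cells into lymph nodes, fell in both lineages (-3.94, adjusted p = 1.08e-07 in CD4+ and -7.4, adjusted p = 7.75e-06 in CD8+ cells), and so did Cd83 (-2.86, adjusted p = 1.31e-05, and -2.85, adjusted p = 0.00357). Of the 17 B cell genes 13 were lower and 0 higher in each lineage (medians -3.7 and -2.96). Their part in the falls of Ccr7 and Cd83 was not tested. In WT cells 11 rose and 5 fell in CD4+ cells, where 14.7% and 9.61% of all genes did, and 8 rose and 6 fell in CD8+ cells, where 13.2% and 10.4% did. Between the genotypes post-tx, 5 targets were higher and 3 lower in Cat-Tg CD4+ cells (median -0.29 against -0.19), where 3.7% of all genes were higher and 6.47% lower. The highest was Il1b (2.67, adjusted p = 0.00621), a gene of myeloid cells, then Vcam1 (2.17, adjusted p = 0.00398), and the lowest were Ccl3 (-3.13, adjusted p = 0.000489) and Ccl4 (-2.4, adjusted p = 0.0022). Of the 14 myeloid genes 11 were also higher and 0 lower there, and their part in these target calls was not tested. In CD8+ post-tx cells 0 of 32 targets passed in edgeR, where 1.67% of all genes tested did. At an unadjusted p under 0.05 there were 8 targets, against 19.1% of all genes, and DESeq2 called 4 and voom 2. Of the upstream genes, Prkcq, the gene of a kinase that acts below the T cell receptor, was higher in Cat-Tg CD8+ post-tx cells (1.61, adjusted p = 0.0413), at 380 to 682 CPM against 133 to 208 CPM, and this call was lost with DESeq2's size factors and without the WT pre-tx libraries.

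Over the 18 libraries other than WT pre-tx, the levels of some of the 10 genes ran together. These correlations of log2 CPM are descriptions, since the points share groups, library preparation and depth. The highest Pearson's r were 0.84 between Nfkb2 and Nfkbie, 0.815 between Nfkbib and Nfkbie and 0.794 between Nfkb1 and Tnfaip3, and the lowest were -0.304 between Rel and Nfkbib and -0.132 between Rel and Rela. Among 16753 protein-coding genes, those like Nfkb1 included Rrbp1 (0.967, and 0.953 over all 24 libraries) and Ptpn13 (0.956, and 0.61 over 24). Those most like Bcl3 were Marcksl1 (0.933, and 0.911 over 24), Dusp5 (0.931, and 0.796) and Tigit (0.919, and 0.456). Rel ran most closely with Phtf2 (0.925, and 0.929 over 24), Cd28 (0.917, and 0.24) and Rnf19a (0.909, and 0.466), and genes like Tnfaip3 included Fgl2 (0.874, and 0.818 over 24) and Adam9 (0.857, and 0.754).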

How the data were processed

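RNA of sorted cells was converted to cDNA by a SMART-Seq method and sequenced. Per the labels, Kallisto 0.46.2 was used, and the authors deposited for each library an estimated count and a TPM value per transcript, not normalized between libraries. TPM values the authors deposited are estimated counts per effective transcript length, scaled within a library, and were used only for levels between genes. The submitters' notes name the build mm9; the release of the transcript index is not given in the sources used here, and pseudoalignment uses no coordinates. Of 117497 transcripts, 116374 matched GENCODE M21, and those held 99.57% to 99.75% of a library's counts. Counts were summed to 35817 genes and rounded.

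edgeR 4.0.16 (R 4.3.3; TMM, robust quasi-likelihood F test) was fitted on the 12 libraries of a cell type, or all 24 for CD8+ against CD4+, on genes over 1 CPM in at least 3 libraries. The model had group terms only. Genes passed at a Benjamini-Hochberg adjusted p of at most 0.05. The study's test (voom and limma on TPM) was replaced because counts were at hand. SE is the size of the log2 fold change over the root of F, and 95% intervals are 1.96 SE. Replicates are separate mice by the study's methods. Pairs of replicates differed by more than sampling noise in every group. In no comparison did every same-numbered pair of libraries deviate together with a correlation over 0.1. With 3 libraries per group this cannot exclude pairing, also between CD8+ and CD4+ libraries of the same mice. The main fits treated the libraries as unpaired. The scripts were tested on simulated data.

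Alternatives were DESeq2 1.42.0, voom (limma 3.58.1), DESeq2's size factors, no filter, a 2-fold minimum, the replicate number as a block, leaving out the WT pre-tx libraries or single libraries, and protein-coding transcripts only, which was chosen after seeing the data. The 10 genes and the gene lists were chosen with earlier results of these data known. All 10 genes are named in each comparison. Of a pathway list at most the 3 highest and 3 lowest log2 fold changes that passed are named, and for the 4 genes with the largest SD over 18 libraries the 3 most similar protein-coding genes, of which some are not reported here. Promoter sequences are from RefSeq.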

Additional observations from a re-analysis of the deposited data

Results flagged for a closer look

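For 4 of the 10 genes the change from pre-tx to post-tx differed between Cat-Tg and WT cells by the test of the difference itself. These were 2 genes in CD8+ and 2 in CD4+ cells, where 10.7% and 21.4% of all genes tested passed in either direction. The CD4+ number is thus about what the share of all genes gives. The calls of Rel and Nfkb2 were lost when some single libraries were left out, as given above. In CD8+ cells the Cat-Tg change exceeded that of WT by 3.34 (log2) for Nfkb1 (95% interval 2.22 to 4.47) and by 3.55 for Rel (1.7 to 5.4). In CD4+ cells it did so by 1.24 for Nfkb2 (0.42 to 2.06) and by 2 for Nfkbie (1.18 to 2.81). The WT side of each is the pre-tx libraries with 16200 to 22500 CPM of B cell genes. Over the B cell list the same difference passed as positive for 12 of 17 genes in CD8+ and 13 of 17 in CD4+ cells (medians 3.59 and 3.73). Myeloid genes did so for 10 of 14 and 12 of 14 (4.19 and 2.43) and red cell genes for 0 of 6 and 6 of 6 (2.5 and 7.22), while T cell genes passed as negative for 6 of 12 and 9 of 12 (-2.14 and -1.51). The part of these lists in the 4 results was not tested. For Nfkb1 the value on protein-coding transcripts was 1.6 (adjusted p = 0.489).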

How the results depend on the processing

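Of 383 recomputed log2 fold changes of genes that had passed, 330 kept their direction and their side of the threshold, 53 kept the direction and missed the threshold, and 0 reversed. The number of the 10 genes called changed by more than 1.5 times in these cases. With DESeq2 it was 5 instead of 3 for CD8+ pre-tx Cat-Tg against WT, 1 instead of 0 for CD8+ post-tx, 6 instead of 2 for the CD4+ difference of changes, and 1 instead of 0 and 2 instead of 1 for CD8+ against CD4+ in Cat-Tg pre-tx and post-tx cells. With voom it was 5 instead of 3 for CD8+ pre-tx, 4 instead of 2 for WT CD8+ over time and 1 instead of 2 for the CD4+ difference. With DESeq2's size factors it was 4 instead of 2 for the CD4+ difference. With no filter it was 4 instead of 2 for Cat-Tg CD8+ over time, 4 instead of 2 for the CD4+ difference, and 0 instead of 1 for CD8+ against CD4+ in Cat-Tg post-tx cells. With a 2-fold minimum it was 2 instead of 4 for WT CD4+ over time. On protein-coding transcripts, chosen after seeing the data, it was 1 instead of 2 for Cat-Tg CD8+ over time and for the CD8+ difference, 0 instead of 1 for CD8+ against CD4+ in Cat-Tg post-tx cells and 1 instead of 3 in WT post-tx cells. The cause was not tested, except that the last alternative drops most Nfkb1 counts. The replicate number as a block gave 4 instead of 2 for WT CD8+ over time and 2 instead of 3 for CD8+ pre-tx, where Rel had -2.69 (adjusted p = 0.058). The numbers are not known to pair mice: in no comparison did every same-numbered pair deviate together with a correlation over 0.1, although in the CD8+ pre-tx genotype comparison and in Cat-Tg CD4+ over time every library correlated best with its own number.

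Of the counts of the 3 other lists, 262 stayed within 1.5 times and 50 did not. Among these, upstream genes that rose in Cat-Tg CD4+ cells were 3 instead of 9 with the 2-fold minimum, and targets that rose there were 19 instead of 12 without the WT pre-tx libraries. Targets that rose in Cat-Tg CD8+ cells were 5 instead of 10 on protein-coding transcripts, and targets lower in Cat-Tg CD4+ post-tx cells were 5 with DESeq2 and 6 with voom instead of 3. With single libraries left out, the counts of the 10 genes ran from 2 to 3 (CD8+) and from 4 to 6 (CD4+) for genotype pre-tx, from 0 to 1 for both genotype comparisons post-tx, from 2 to 2 (Cat-Tg CD8+), from 1 to 5 (WT CD8+), from 3 to 5 (Cat-Tg CD4+) and from 2 to 4 (WT CD4+) over time, from 1 to 6 for both differences of changes, and from 0 to 0, from 0 to 2 and from 2 to 5 for CD8+ against CD4+ in Cat-Tg pre-tx, Cat-Tg post-tx and WT post-tx cells. DESeq2's size factors moved the median of all genes by up to 0.338 (the CD4+ difference) and by 0.228 for Cat-Tg CD4+ over time. The 3 libraries per group, the mixed WT pre-tx libraries and the spread of the WT CD8+ post-tx group limit these comparisons, and Rel, with group means of 3.81 to 34.8 CPM, rests on few counts.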
